A study of Mus musculus with 8 samples.

Results

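The interferon-stimulated genes described here are 9 genes that cells switch on when type I interferon reaches them: *Ifit1*, *Ifit3*, *Oasl2*, *Bst2*, *Isg15*, *Usp18*, *Irf7*, *Rtp4* and *Ifi35*. They were chosen by gene symbol, as known targets of the pathway, and all 9 were found among the 16686 genes with counts in the table. They were measured by RNA sequencing in the tibialis anterior (TA), a fast-twitch muscle of the lower leg, of old male mice. The control group (WTOld) held 4 wild-type mice on the FVBN background. The other group (C2-/-Old) held 4 mice of the same background that lack *Mybpc2*, which encodes fMyBP-C, the myosin-binding protein C found on the thick filaments of fast fibres. In C2-/- mice a stretch of *Mybpc2* exons was replaced by a neomycin resistance cassette between LoxP sites, so the gene is disrupted in every cell and from conception. The age field of the labels gives 22 months for all 8 mice, and no treatment is named. The labels' growth protocol instead gives 2 months for both groups, so the labels are at odds, and 22 months is used here because the dissection protocol and the study's methods place these mice in old age. Each library is the muscle of 1 mouse, and whether the controls were littermates is not given in the sources used here.

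Type I interferons bind a receptor made of IFNAR1 and IFNAR2, and the kinases JAK1 and TYK2 then activate a complex of transcription factors that includes IRF9. This complex enters the nucleus and binds interferon-stimulated response elements, short DNA stretches with repeated GAAA letters in front of the target genes. The targets include proteins that bind foreign RNA, hold viruses at the cell surface, tag other proteins, and strengthen or end the signal, and a low level of many of them is present in healthy tissue without infection. In muscle, fibres, endothelial cells and resident macrophages can all express them, and in a whole muscle a change in the number of such cells and a change in the RNA of each cell cannot be told apart.

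Stretches in front of some of these genes that hold repeated GAAA letters are shown first. The promoter windows of RefSeq (GRCm38.p6), each from 250 bases before to 50 bases after a gene's start, were searched for GAAANNGAAA and its reverse complement TTTCNNTTTC, where N is any base and overlapping matches were counted. RefSeq windows were at hand for 7 of the 9 genes, *Usp18* and *Rtp4* being the other two. Matches lay in 4 of these 7, *Ifit1*, *Ifit3*, *Bst2* and *Isg15*, and the windows of *Oasl2*, *Irf7* and *Ifi35* held none. Of all 32851 windows of this length, 3.44% held a match. Counted by gene, as for the 7 above, 3.99% of the 27025 genes with a window had a match in any of theirs. Among the other genes of the pathway described further on, 42 of the 105 with a window (40%) held one. A match is a run of letters and not a measured site, and a window without one says nothing of other sequences through which a gene may respond. In the stretches below, shown because they hold every match in the 4 genes, capitals mark the matches and all sequences run 5′ to 3′ on the strand of the gene.
*Ifit1*, chr19:34640765-34640833, plus strand: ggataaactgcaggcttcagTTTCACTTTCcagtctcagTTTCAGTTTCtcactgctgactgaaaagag
*Ifit3*, first match, chr19:34583363-34583392, plus strand: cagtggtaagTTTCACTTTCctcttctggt
*Ifit3*, second match, chr19:34583397-34583426, plus strand: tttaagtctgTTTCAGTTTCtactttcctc
*Bst2*, chr8:71537567-71537622, minus strand: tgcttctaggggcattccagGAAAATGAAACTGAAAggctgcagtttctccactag
*Isg15*, chr4:156200855-156200916, minus strand: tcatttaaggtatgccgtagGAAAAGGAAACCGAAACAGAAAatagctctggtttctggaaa

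*Ifit1* and *Ifit3* carried the same pair of 10-base matches, which began 104 and 85 bases before the start of *Ifit1* and 156 and 122 bases before that of *Ifit3*. These distances are from the start on which each promoter window is built, which for *Ifit3* and *Ifit3b* lies inside the longer RefSeq interval of the gene. In *Bst2* 2 matches overlapped, the first beginning 130 bases before the start. In *Isg15* 3 overlapping matches formed 1 unbroken run of GAAA repeats that began 78 bases before the start. *Ifit3b*, a near-identical copy of *Ifit3* on the same chromosome, carried both matches of *Ifit3* with the same letters, at chr19:34607759-34607788 and chr19:34607793-34607822, and over the 84 bases around them the copies differed at 0 positions.

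Sequencing gave between 25425993 and 29747692 expected counts per mouse. Counts were scaled to CPM (counts scaled to library size) with edgeR's TMM factors, and the test covered 12542 genes that passed its filter. The floor of 3 counts lay between 0.101 and 0.118 CPM and covers counting error only. The targeted gene, *Mybpc2*, lay between 4964.4 and 7392.3 CPM in WTOld and at 4.35, 4.02, 38.3 and 3.85 CPM in C2-/-Old, with a log2 fold change of −8.82 (SE 0.94). It passed edgeR's quasi-likelihood test with an adjusted p of 0.00750. C2-/-Old replicate 3 stood apart from the other knockouts in this gene, and several results below are given also without it. Muscle fibre markers were high in all mice, with the summed level of 7 fast fibre genes between 147724.1 and 195998.4 CPM.

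On a scale that corrects for transcript length (TPM, transcript copies scaled to the same total in each library), the mean level over the 8 mice ran from 0.413 TPM for *Ifit1* to 11.9 TPM for *Ifi35*, that is, above 28.0% and 69.2% of the genes in the table. *Bst2* stood above 59.7% of them and *Rtp4*, the next gene, above 45.6%. *Ifi35* came first with 11.9 ± 1.84 TPM (SD, n = 8) and *Bst2* next with 6.70 ± 1.32 TPM, and these ranges did not meet each other or that of *Rtp4*, at 2.55 ± 0.362 TPM. From *Rtp4* downwards the order was *Irf7* (2.13 ± 0.453 TPM), *Oasl2* (1.55 ± 0.552 TPM), *Usp18* (1.21 ± 0.344 TPM), *Isg15* (0.927 ± 0.414 TPM), *Ifit3* (0.909 ± 0.457 TPM) and *Ifit1* (0.413 ± 0.151 TPM), and each of these overlapped with its neighbour in the order. The RNA-binding IFIT genes had the lowest means, with *Ifit3* close to *Isg15*. The value of *Ifit3* leaves out counts given to its near-identical copy *Ifit3b*, at a mean of 0.372 TPM, so its place depends on how they were divided.

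**Figure D1:**
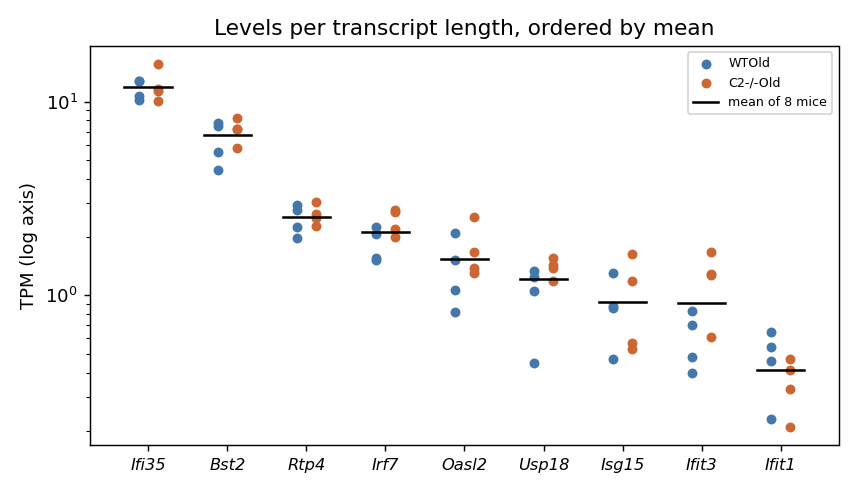
Level of each interferon-stimulated gene in TPM, on a log axis, in order of the mean. Points are mice, WTOld in blue and C2-/-Old in orange, and black lines are means of 8 mice. *Ifi35* and *Bst2* lie above the other genes in every mouse, and the later genes overlap with their neighbours.

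Between the genotypes, 6 of the 8 genes that passed the filter on low counts had a higher level in C2-/-Old than in WTOld and 2 a lower one, and the median log2 fold change of the 8 was 0.20, against −0.02 over all tested genes. With Benjamini-Hochberg adjusted values from edgeR's quasi-likelihood test, 0 of the 8 were called at an adjusted p under 0.05 and a fold over 1.5, where 0.0319% of all tested genes were. DESeq2 and limma-voom also called 0 of them. A fold over 1.5 alone was seen in 1 of the 8, *Ifit3*, and in 7.3% of all tested genes. At an unadjusted p under 0.05 there was 1, again *Ifit3*, where 5.29% of all tested genes were under that level. In all 9 genes the values of the genotypes overlapped, and the share of all tested genes whose groups do not overlap was 3.38%.

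*Ifit3* had the largest difference among the 9 genes. It encodes an interferon-induced protein with tetratricopeptide repeats that acts with other IFIT proteins on viral RNA, and it lies on chromosome 19 from 34583119 to 34588982 (gene 15959; positions here and for the other genes are from RefSeq, GRCm38.p6). Its level was 0.733, 0.985, 0.448 and 0.398 CPM in WTOld replicates 1 to 4 and 0.643, 1.60, 1.28 and 1.28 CPM in C2-/-Old replicates 1 to 4. C2-/-Old replicates 2, 3 and 4 lay above every WTOld mouse, and replicate 1 lay within the WTOld range. The means were 0.641 ± 0.273 CPM (SD, n = 4) in WTOld and 1.20 ± 0.401 CPM (SD, n = 4) in C2-/-Old. This is a log2 fold change of 0.90 (SE 0.39, 95% interval 0.03 to 1.77), or 1.87-fold with an interval of 1.02 to 3.42. By edgeR's quasi-likelihood test p was 0.0438 before and 0.922 after adjustment. Without C2-/-Old replicate 3 the log2 fold change was 0.88. With single mice left out, the unadjusted p of edgeR's test was under 0.05 without WTOld replicate 2 or C2-/-Old replicate 1 and lay between 0.0577 and 0.123 without any other mouse.

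Only 202 counts in all 8 mice stood behind *Ifit3*, between 11 and 43 in a mouse, and part of them may belong to *Ifit3b*, whose transcript is 97.8% identical over 1700 bases in GENCODE vM21. The values of *Ifit3* in the table were not whole numbers in 7 of the 8 mice, while the sum of both copies was whole in all 8. This sum was 30, 35, 17 and 25 counts in WTOld replicates 1 to 4 and 24, 57, 53 and 49 counts in C2-/-Old replicates 1 to 4. C2-/-Old replicates 2, 3 and 4 again lay above all WTOld mice, and C2-/-Old replicate 1 was the second lowest of the 8. *Ifit3* took 64.6% of the pooled counts of both copies in WTOld and 72.8% in C2-/-Old. The division between the copies was not the same in every mouse. The share was 45.9% in WTOld replicate 4 and between 63.3% and 76.3% in every other mouse of either genotype. With the copies summed the level was 0.993 ± 0.285 CPM in WTOld and 1.65 ± 0.525 CPM in C2-/-Old (SD, n = 4 each). The log2 fold change was 0.73 (SE 0.34, 95% interval −0.01 to 1.48). The unadjusted p of edgeR's test for the sum was 0.0535 and the adjusted p 0.942. *Ifit3b* alone had a log2 fold change of 0.35 (SE 0.43), or 0.19 without C2-/-Old replicate 3. The interval that the table gives for *Ifit3* also runs over *Ifit3b* and *Ifit1bl1*.

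**Figure D2:**
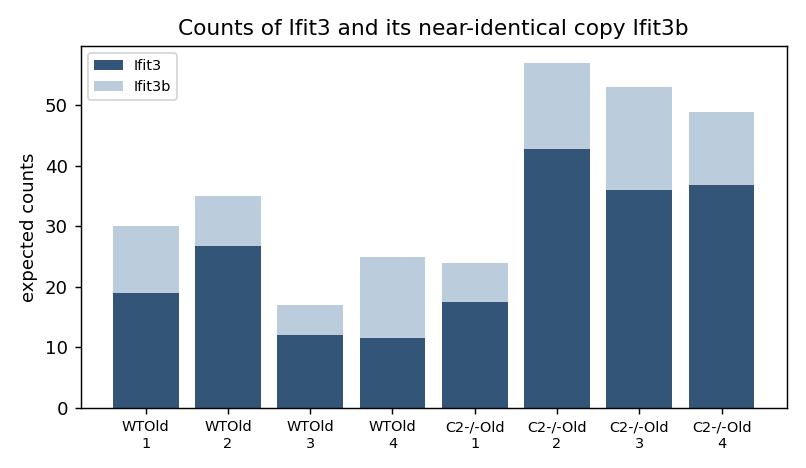
Expected counts of *Ifit3* (dark) and *Ifit3b* (light), stacked, in each of the 8 mice; bars start at 0. Their sum is 49 to 57 in C2-/-Old replicates 2, 3 and 4 and 17 to 35 in the other 5 mice.

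*Ifit1* encodes the family member that recognises RNA without the methyl marks of a host cap, and it lies 51906 bases from *Ifit3* on the same chromosome, from 34640889 to 34650009 (gene 15957). Its mean went the other way. It was at 0.964, 0.729, 0.299 and 0.796 CPM in WTOld replicates 1 to 4 and at 0.681, 0.558, 0.461 and 0.277 CPM in C2-/-Old replicates 1 to 4. The 4 C2-/-Old mice all lay below 3 of the 4 WTOld mice, and WTOld replicate 3 lay among the lowest. The means were 0.697 ± 0.283 CPM in WTOld and 0.494 ± 0.170 CPM in C2-/-Old (SD, n = 4 each), and the log2 fold change was −0.50 (SE 0.43, 95% interval −1.45 to 0.46) with an adjusted p of 0.968 by edgeR's test. With single mice left out it was −0.30 without WTOld replicate 1 or C2-/-Old replicate 4 and −0.74 without WTOld replicate 3, the ends of its range. In the table its interval overlaps those of *Ifit1bl1* and *Ifit1bl2*, and in RefSeq that of *Ifit1bl1*. With the counts of these genes added, the log2 fold change was −0.44 (95% interval −1.26 to 0.38), and *Ifit1bl1* itself had 8 counts in all mice together. *Ifit1* and *Ifit3* share the matched letters of their promoters and their neighbourhood, and their fold changes had opposite signs with intervals that overlap. The difference between these fold changes was not tested.

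*Oasl2*, on chromosome 5 from 114896926 to 114912245 (gene 23962), encodes a 2′-5′-oligoadenylate synthetase-like protein of the antiviral RNA response. It was at 2.43, 1.42, 0.971 and 1.77 CPM in WTOld replicates 1 to 4 and at 2.88, 1.82, 1.77 and 1.77 CPM in C2-/-Old replicates 1 to 4. Replicate 1 was the highest mouse of each genotype. All 4 C2-/-Old mice lay above the WTOld median, and the log2 fold change was 0.32 (SE 0.31, 95% interval −0.37 to 1.01).

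*Bst2*, on chromosome 8 from 71534255 to 71537472 (gene 69550), encodes tetherin, which holds budding viruses at the cell membrane. Its level was 1.77, 3.21, 1.94 and 3.04 CPM in WTOld replicates 1 to 4 and 2.84, 2.98, 2.77 and 2.11 CPM in C2-/-Old replicates 1 to 4. Every C2-/-Old mouse lay within the WTOld range. The means were 2.49 ± 0.738 and 2.67 ± 0.383 CPM (SD, n = 4 each), a log2 fold change of 0.10 (SE 0.25, 95% interval −0.45 to 0.65).

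ISG15 is a ubiquitin-like protein that is joined to other proteins, and USP18 takes it off again and blocks the interferon receptor. *Isg15*, on chromosome 4 from 156199424 to 156200818 (gene 100038882), had between 5 and 17 counts in a mouse and did not pass the filter on low counts. Its level was 0.347, 0.547, 0.299 and 0.181 CPM in WTOld replicates 1 to 4 and 0.454, 0.186, 0.213 and 0.589 CPM in C2-/-Old replicates 1 to 4. In C2-/-Old these values fell into a pair near the top and a pair near the bottom of all 8 mice. Fitted without the filter, the log2 fold change was 0.08 (SE 0.55), and its 95% interval of −1.13 to 1.28 was the widest of the 9 genes.

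*Usp18*, on chromosome 6 from 121245906 to 121270917 (gene 24110), was at 1.31, 0.474, 1.08 and 1.01 CPM in WTOld replicates 1 to 4 and at 1.32, 1.26, 1.10 and 1.39 CPM in C2-/-Old replicates 1 to 4. The C2-/-Old mice lay close together, and WTOld replicate 2 lay far below all others. The means were 0.970 ± 0.354 and 1.27 ± 0.123 CPM (SD, n = 4 each), with a log2 fold change of 0.39 (SE 0.32, 95% interval −0.33 to 1.10). Without WTOld replicate 2 the log2 fold change was 0.17.

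*Irf7*, the transcription factor that amplifies the production of type I interferon, lies on chromosome 7 from 141263183 to 141266499 (gene 54123). It was at 2.08, 1.68, 2.02 and 1.56 CPM in WTOld replicates 1 to 4 and at 2.16, 2.42, 2.62 and 1.87 CPM in C2-/-Old replicates 1 to 4. As in *Ifit3*, 3 of the 4 C2-/-Old mice lay above every WTOld mouse, here replicates 1, 2 and 3. The means were 1.83 ± 0.256 and 2.27 ± 0.326 CPM (SD, n = 4 each), and the log2 fold change was 0.31 (SE 0.21, 95% interval −0.17 to 0.78) and an adjusted p of 0.968 by edgeR's test. Without C2-/-Old replicate 3 it was 0.24.

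*Rtp4*, a receptor chaperone that is also interferon-induced, lies on chromosome 16 from 23520219 to 23614222 (gene 67775). It was at 2.58, 1.82, 2.13 and 1.95 CPM in WTOld replicates 1 to 4 and at 2.73, 2.12, 2.06 and 1.98 CPM in C2-/-Old replicates 1 to 4. The means differed by less than either SD, at 2.12 ± 0.332 and 2.22 ± 0.342 CPM (n = 4 each), and the log2 fold change was 0.06 (SE 0.21, 95% interval −0.41 to 0.54). The RefSeq interval of *Rtp4* overlaps *Masp1*.

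*Ifi35*, a leucine zipper protein that partners with NMI, lies on chromosome 11 from 101448412 to 101458701 (gene 70110) and had the most counts of the 9 genes, 1851 in all. It was at 9.45, 10.1, 6.68 and 7.78 CPM in WTOld replicates 1 to 4 and at 8.21, 6.73, 11.0 and 7.83 CPM in C2-/-Old replicates 1 to 4. The highest and the second lowest of the 8 mice were both C2-/-Old. With the smallest error of the 9 genes, its log2 fold change was −0.01 (SE 0.19, 95% interval −0.43 to 0.41), and without C2-/-Old replicate 3 it was −0.16. The interval given for *Ifi35* in the table overlaps *Rpl27*, a ribosomal protein gene, and *Vat1*.

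**Figure D3:**
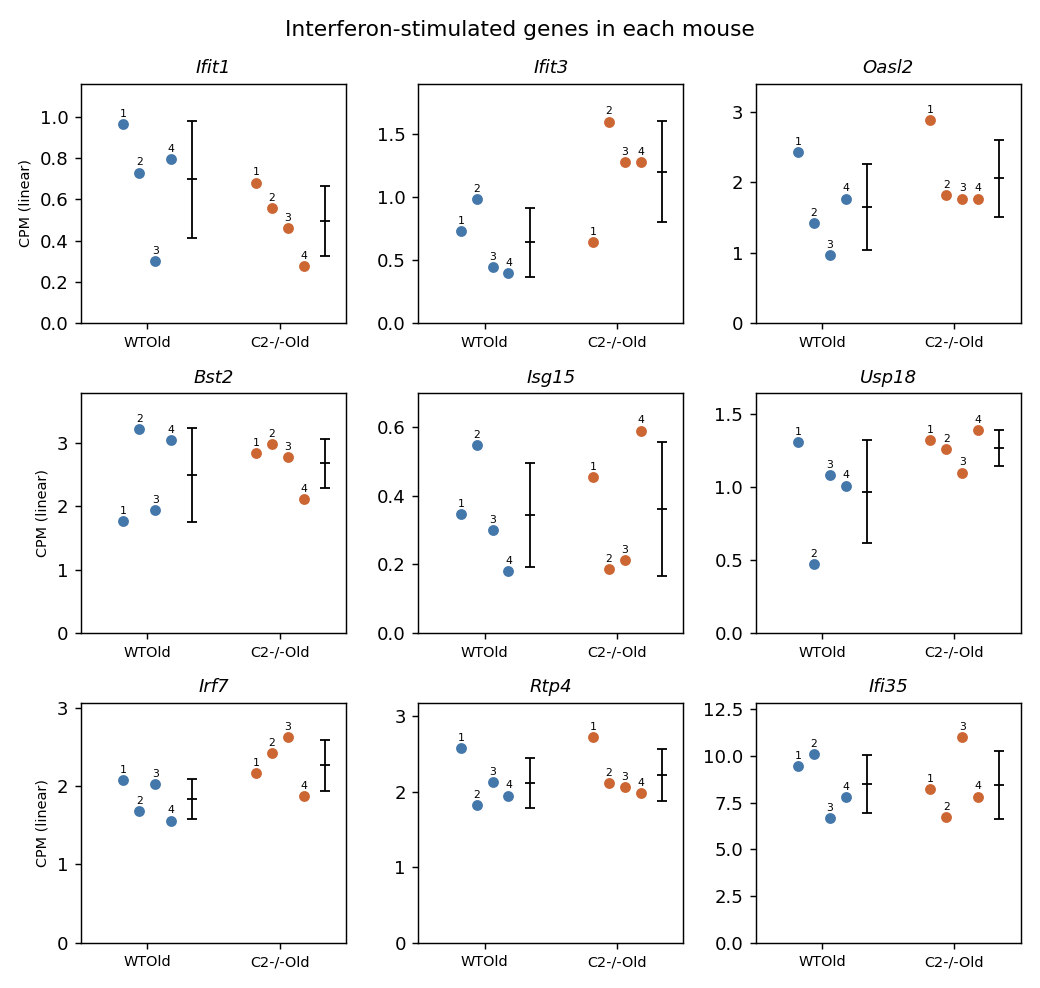
CPM of the 9 genes in each mouse on linear axes that start at 0. Numbers beside the points are replicate numbers, WTOld in blue and C2-/-Old in orange, and bars show the mean ± SD of 4 mice. The genotypes overlap in every panel, and in *Ifit3* and *Irf7* 3 of the 4 C2-/-Old mice lie above all WTOld mice.

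**Figure D4:**
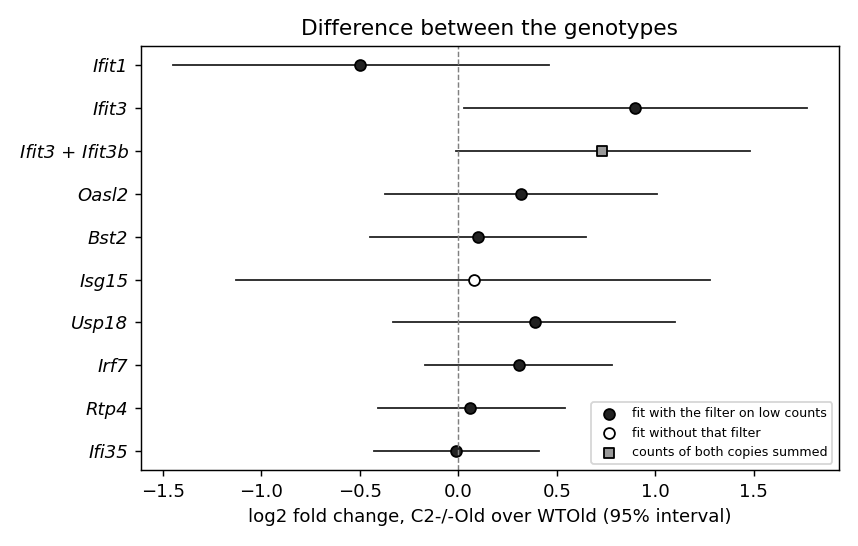
Log2 fold change of each gene, C2-/-Old over WTOld, with its 95% interval from edgeR's quasi-likelihood fit. The open point is *Isg15*, fitted without the filter on low counts, and the square is the sum of *Ifit3* and *Ifit3b*. The interval of *Ifit3* begins at 0.03, and all other intervals include 0.

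The spread between mice of one genotype was set beside the spread that counting error alone gives, with no test. For *Ifi35* the coefficient of variation within groups was 20.0%, where counting error gives 6.58%. For *Oasl2* it was 31.3% against 14.1%, and for *Ifit3* 37.2% against 20.0%. For *Irf7* (14.3% against 13.4%) and *Rtp4* (15.5% against 13.0%) the spread was close to that of counting alone. The median biological coefficient of variation that edgeR fitted was 26.0% for the 8 tested genes and 19.6% for all tested genes.

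The genes did not vary as one block among the mice. The mean of the 8 tested genes on a log2 scale, set relative to each gene's mean, was 0.15, −0.08, −0.38 and −0.11 in WTOld replicates 1 to 4 and 0.18, 0.16, 0.15 and −0.06 in C2-/-Old replicates 1 to 4. WTOld replicate 3 was the lowest of all, WTOld replicate 1 reached the level of the 3 higher C2-/-Old mice, and C2-/-Old replicate 4 stayed at the level of the lower WTOld mice. Summed over the 9 genes, the level was 19.3 ± 2.64 CPM in WTOld and 21.0 ± 1.95 CPM in C2-/-Old (SD, n = 4 each), with *Ifi35* taking the greatest part. After the group means were taken out, the median correlation over the 28 pairs of tested genes was 0.11 (Pearson's r, 8 mice) and 0.08 (Spearman's rho), and 18 pairs were above 0. *Oasl2* and *Ifit1* were the closest pair, with r = 0.85 and rho = 0.98. *Usp18* and *Bst2* were the most opposed, with r = −0.72 and rho = −0.64. *Ifit3* was close to 0 with *Ifit1* (r = 0.05). All points of a pair come from the same 8 libraries and from low counts, so these values are a description.

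Of 11393 other tested genes with a mean of at least 1 CPM, the 5 whose log2 level followed the mean of the 8 genes most closely over the 8 mice were *Actc1* (r = 0.95, rho = 0.83), *Sfxn1* (r = 0.95, rho = 0.90), *2810006K23Rik* (r = 0.93, rho = 0.74), *Zc3h8* (r = 0.93, rho = 0.81) and *Tmem128* (r = 0.90, rho = 0.76). *Actc1*, the actin of cardiac and developing skeletal muscle, was at 38.3, 15.3, 8.74 and 15.0 CPM in WTOld replicates 1 to 4 and at 45.3, 30.5, 49.2 and 23.4 CPM in C2-/-Old replicates 1 to 4. Like the mean of the 8 genes, it was lowest in WTOld replicate 3, and WTOld replicate 1 lay among the C2-/-Old mice. None of the 5 belongs to the interferon list below, and being the closest of so many genes they carry no test.

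The wider pathway was followed in a list of 132 other interferon genes, grouped by role. Of these, 118 were in the table and 97 passed the filter, and the 14 others, among them *Mx1* and *Mx2*, were not analysed here. In C2-/-Old, 58 of the 97 were higher and 39 lower, where 45.8% of all tested genes were higher. The median log2 fold change was 0.09. By edgeR's quasi-likelihood test 0 of the 97 reached an adjusted p under 0.05, the smallest being 0.731. At an unadjusted p under 0.05, 6 were higher and 1 lower, where 3.38% and 1.91% of all tested genes were. Without C2-/-Old replicate 3 this was 4 genes in place of 7. DESeq2 called 0 of the list. The genotypes did not overlap in 3 genes of the 97 that were higher and in 1 that was lower. Of all tested genes, 3.38% did not overlap in either direction. No change of the list as a whole was tested.

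Among the signal's own components, of 5 tested receptor genes, 1 was higher and 4 lower, with a median log2 fold change of −0.10. *Ifnar1* and *Ifnar2*, the receptor chains for type I interferon, had log2 fold changes of −0.14 (SE 0.17) and 0.04 (SE 0.17). In the relay of kinases and STAT proteins 5 of 6 genes were higher, with a median of 0.22. *Stat2* (0.29, SE 0.24) and *Irf9* (0.09, SE 0.16), 2 factors of the complex, overlapped between the genotypes, and without C2-/-Old replicate 3 their log2 fold changes were 0.09 and 0.01. Of the 11 interferon ligand genes on the list, *Ifng* was in the table, with 3 counts in all mice together.

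Among the other transcription factors of the IRF family 2 of 5 were higher, with a median of −0.03. *Irf2*, which competes with activators at the response element, was at 25.4 ± 5.85 CPM in WTOld and 20.0 ± 1.43 CPM in C2-/-Old (SD, n = 4 each). Its log2 fold change was −0.35 (SE 0.16), and *Irf3*, which starts interferon production, had one of −0.23 (SE 0.15). The intervals of both included 0, and without C2-/-Old replicate 3 the log2 fold changes were −0.38 and −0.25. WTOld replicate 2 was the highest mouse in both, at 33.5 CPM for *Irf2* and 20.6 CPM for *Irf3*. The other WTOld mice lay between 20.0 and 25.7 CPM for *Irf2* and between 13.6 and 15.1 CPM for *Irf3*. C2-/-Old mice lay between 18.2 and 21.7 CPM and between 12.5 and 14.3 CPM. Of 11 sensors and adaptors for foreign nucleic acid 7 were higher, with a median of 0.10. *Ifih1*, which encodes the sensor of long double-stranded RNA MDA5, was at 1.62, 2.44, 2.02 and 2.46 CPM in WTOld replicates 1 to 4 and at 3.14, 3.27, 3.58 and 2.67 CPM in C2-/-Old replicates 1 to 4. All C2-/-Old mice lay above all WTOld mice, with a log2 fold change of 0.57 (SE 0.21) and an adjusted p of 0.849 by edgeR's test, and without C2-/-Old replicate 3 the log2 fold change was 0.51. Of the enzymes that attach ISG15, 3 of 4 were higher, with *Trim25* at 0.38, *Uba7* at 0.36 (SE 0.26), *Ube2l6* at 0.05 (SE 0.45) and *Herc6* at −0.05 (SE 0.43) on the log2 fold change scale. Of 5 negative regulators, 2 were higher, with a median of −0.02.

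Other classical interferon targets were the largest group, with 46 genes tested. In C2-/-Old 33 were higher and 13 lower (median log2 fold change 0.15), and 4 had an unadjusted p under 0.05, all of them higher, where 3.38% of all tested genes were higher at that level. *Ifi27l2a*, which encodes a small hydrophobic protein and is a strong interferon target, was at 0.540, 0.875, 1.27 and 1.59 CPM in WTOld replicates 1 to 4 and at 1.63, 1.90, 4.40 and 2.25 CPM in C2-/-Old replicates 1 to 4. The genotypes did not overlap, although the highest WTOld and the lowest C2-/-Old mouse nearly met, and the log2 fold change was 1.25 (SE 0.41) with an adjusted p of 0.755 by edgeR's test. C2-/-Old replicate 3 was the highest, and without it the log2 fold change was 0.85. *Lgals3bp*, a secreted galectin-binding protein, was at 15.4, 16.9, 16.0 and 16.6 CPM in WTOld replicates 1 to 4 and at 24.3, 20.6, 17.9 and 22.2 CPM in C2-/-Old replicates 1 to 4. It did not overlap between the genotypes either, and its log2 fold change was 0.39 (SE 0.12) with an adjusted p of 0.731 by edgeR's test. Without C2-/-Old replicate 3 its log2 fold change was 0.47. *Ifi204*, a DNA-binding protein found in myeloid cells, had a log2 fold change of 0.89 (SE 0.37), or 0.70 without C2-/-Old replicate 3, and overlapped. *Parp14*, the last of the 4, named here because its p was seen to be under that level, had one of 0.43.

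The guanylate-binding and immunity-related GTPases, which respond above all to interferon-gamma, had 5 of 15 tested genes higher and 10 lower, beside 45.8% higher over all tested genes, and a median of −0.08 beside −0.02. *Irgm2* was at 11.3, 15.7, 12.5 and 15.2 CPM in WTOld replicates 1 to 4 and at 13.6, 23.9, 23.8 and 28.8 CPM in C2-/-Old replicates 1 to 4. As in *Ifit3*, C2-/-Old replicates 2, 3 and 4 lay above all WTOld mice and replicate 1 among them. The log2 fold change was 0.72 (SE 0.21) with an adjusted p of 0.731 by edgeR's test, and without C2-/-Old replicate 3 it was 0.70. *Gvin1*, a giant GTPase, was at 6.21, 6.31, 5.71 and 5.86 CPM in WTOld replicates 1 to 4 and at 2.35, 4.98, 3.23 and 5.06 CPM in C2-/-Old replicates 1 to 4. All C2-/-Old mice lay below all WTOld mice, with a log2 fold change of −0.62 (SE 0.24) and an adjusted p of 0.857 by edgeR's test. The log2 fold change without C2-/-Old replicate 3 was −0.54. The counts of *Gvin1*, *Irgm2* and *Ifi204* were not whole numbers in most or all mice, so part of them may belong to other genes. The near-identical pair *Tgtp1* and *Tgtp2*, whose counts may be divided between them, had log2 fold changes of −0.97 (SE 0.60) and −0.83 (SE 0.45). These were −1.33 and −0.67 without C2-/-Old replicate 3, and both genes overlapped between the genotypes. WTOld replicate 2 was again the highest mouse, at 2.33 and 4.60 CPM, with at most 1.19 and 2.14 CPM in any other mouse.

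**Figure D5:**
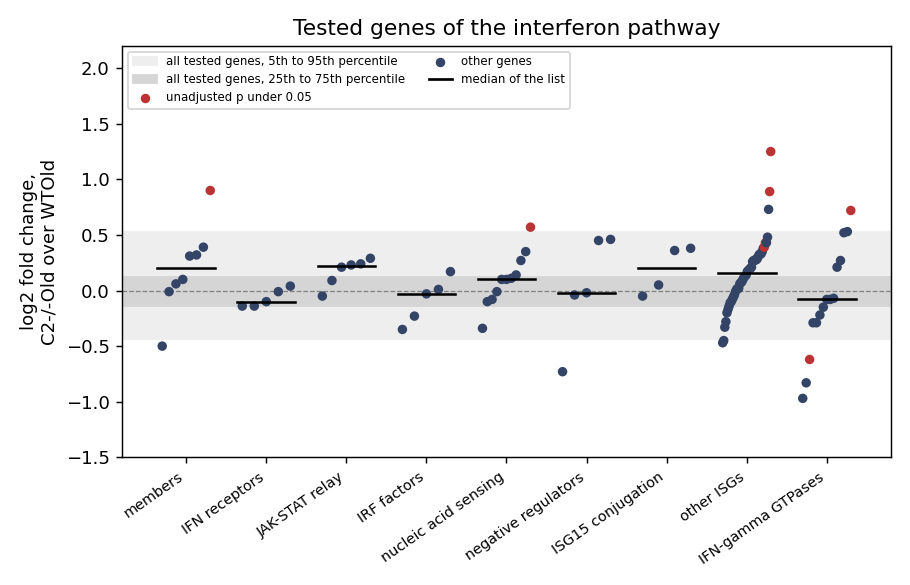
Log2 fold change, C2-/-Old over WTOld, of the 8 tested interferon-stimulated genes (members) and of the 97 tested genes of the pathway by role. Red points have an unadjusted p under 0.05, black lines are medians, and grey bands hold the central parts of all tested genes, from −0.44 to 0.53 (light) and from −0.14 to 0.12 (dark). Medians lie between −0.10 and 0.22, and no gene passed the adjusted threshold.

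Markers of immune and endothelial cells were read in the same libraries. The summed level of 12 macrophage markers lay between 46.7 and 100.3 CPM in WTOld and between 68.0 and 113.0 CPM in C2-/-Old. Of the 11 that were tested 8 were higher and 3 lower, where 45.8% of all tested genes were higher. Their log2 fold changes ran from −0.23 to 0.44 with a median of 0.22. By edgeR's test 0 of the 11 had an unadjusted p under 0.05. *Cd68* and *Csf1r* had log2 fold changes of 0.44 (SE 0.36) and 0.39 (SE 0.27). *Adgre1* had one of 0.22 (SE 0.46). The 5 leukocyte markers summed to between 11.0 and 19.4 CPM in WTOld and between 14.5 and 18.2 CPM in C2-/-Old, and these ranges overlapped. Higher in C2-/-Old were 4 of the 5, and the median log2 fold change of the 5 was 0.25. Of those higher, 1 had a p under 0.05 before adjustment, where 3.38% of all tested genes were higher at that level. The smallest adjusted p of the 5 was 0.896 by edgeR's test. The 1 that was lower was *Ptprc*, the common leukocyte antigen, at −0.12 (SE 0.34).

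Markers of rarer cells had wide ranges. The 8 T and NK cell markers summed to between 0.181 and 0.373 CPM in WTOld and between 0.446 and 1.67 CPM in C2-/-Old, without overlap, and none of the 8 passed the filter on low counts. The 4 B cell markers lay between 0.255 and 0.964 CPM in WTOld and between 0.248 and 4.69 CPM in C2-/-Old. The 1 that was tested had a log2 fold change of 1.90. By edgeR's test its p was under 0.05 before adjustment and 0.884 after it, and 3.38% of all tested genes were higher at that unadjusted level. The 3 markers of plasmacytoid dendritic cells, the main producers of type I interferon, lay between 0.398 and 0.485 CPM in WTOld and between 0.390 and 0.818 CPM in C2-/-Old. The 5 neutrophil markers reached 40.5 CPM in WTOld replicate 2 and at most 4.42 CPM in any other mouse. The 3 that were tested were all lower in C2-/-Old with an unadjusted p under 0.05, where 1.91% of all tested genes were. Their smallest adjusted p was 0.914 by edgeR's test, and the high sum of these markers rests on that 1 library. No marker of these lists was at 0 in all mice. However, 2 of the T and NK cell markers and 1 of the plasmacytoid dendritic cell markers had at most 3 counts in every mouse. The summed levels were not tested. Endothelial markers lay between 254.0 and 370.5 CPM in WTOld and between 267.8 and 351.0 CPM in C2-/-Old. The part of these cells in the levels of the interferon-stimulated genes was not tested. Without WTOld replicate 2, the library with the neutrophil markers, *Ifit3* had a log2 fold change of 1.19 and an adjusted p of 0.689 by edgeR's test.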

How the data were processed

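RNA enriched for polyadenylated transcripts from 8 TA muscles was sequenced by the authors on a DNA nanoball platform. The labels name HISAT, Bowtie2, DESeq2 and GRCm38.p6, and the methods name featureCounts for counting and limma-voom for testing. The authors deposited 1 table with expected counts per gene, which were not normalized and of which 5.5% to 6.53% per mouse were not whole, and with TPM, which they had scaled to transcript length and depth. How the fractional counts arose is not given in the sources used here, nor whether counting used the strand. Columns with the authors' fold changes, p-values, q-values and averages, and 8 columns of other values per mouse, were not used. TPM served only to order genes by level.

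Expected counts were rounded, 25 symbols were restored from gene IDs, and 1 row without a gene ID and counts was left out. Genotypes were compared in edgeR 4.0.16 under R 4.3.3, by its quasi-likelihood test after TMM scaling (factors 0.929 to 1.03) and its default filter, with p-values adjusted by Benjamini and Hochberg's method over 12542 genes. CPM are rounded counts over TMM-scaled library sizes. The p-values measure the spread between 4 mice a group. Tried in its place were DESeq2 1.42.0, limma 3.58.1 (voom, plain or with weights for sample quality), scaling by RLE, no filter or one of 10 counts in every mouse, a block for the replicate number, the omission of each mouse, and sums of near-identical copies (blastn 2.17.0, GENCODE vM21). Tables were handled in Python 3.11.15 with pandas 2.3.3 and correlations computed with scipy 1.17.1.

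The members and lists were chosen with earlier results of these data known. Named genes are the 9 members, *Mybpc2*, the 5 pathway genes per direction with the smallest p, the pathway's core components (1 of them is not reported here), the copies, the 5 genes most like the members and 4 marker genes. *Parp14*, *Trim25* and *Ifng* fall outside this rule. Replicate numbers are shared by the genotypes but belong to different mice: the correlations of deviations between mice of the same number were 0.267, 0.042, −0.051 and 0.021, so the numbers were not treated as pairs.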

Additional observations from a re-analysis of the deposited data

Results flagged for a closer look

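In groups of 4 mice, a mouse was picked out where its gap to the nearest other mouse took more of the range of its group than Dixon's criterion allows. Of 70 groups examined 3 met it, where chance gives about 1 in 20. *Oasl2* was at 2.88 CPM in C2-/-Old replicate 1, with the other 3 knockouts between 1.77 and 1.82 CPM (ratio 0.951), and without that mouse its log2 fold change was 0.12. *Mybpc2*, the deleted gene, was at 38.3 CPM in C2-/-Old replicate 3, with the other 3 knockouts between 3.85 and 4.35 CPM (ratio 0.985). The mean log2 level of the 8 tested interferon-stimulated genes was −0.0616 in C2-/-Old replicate 4 and between 0.15 and 0.18 in the other 3 knockouts (ratio 0.870).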

How the results depend on the processing

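No member passed the adjusted threshold under any of the 15 alternatives. Low counts left *Isg15* out of most of them and *Ifit1* out of the filter of 10 counts in every mouse. At an unadjusted p under 0.05 the count of members was 1 and stayed 1 under the other scalings, tests and filters. With the replicate number as a block it was 0, with *Ifit3* at a p of 0.0556, and with 1 mouse left out it lay between 0 and 1. It was 1 only without WTOld replicate 2 or C2-/-Old replicate 1. The log2 fold change of *Ifit3* lay between 0.74 and 1.24. Its unadjusted p lay between 0.00996 (limma-voom with sample quality weights) and 0.123 (edgeR without C2-/-Old replicate 2). With the counts of *Ifit3b* added the log2 fold change was 0.73. The signs of *Ifit1*, *Ifit3*, *Oasl2*, *Usp18* and *Irf7* were the same in all alternatives, while that of *Ifi35* was reversed with sample quality weights (0.03). Leaving out 1 mouse moved *Ifi35* between −0.16 and 0.09, *Bst2* between −0.03 and 0.25 and *Rtp4* between −0.04 and 0.17. *Isg15* passed the filter in only 5 of these fits and lay between −0.13 and 0.29 in them. In the pathway list, 7 genes had an unadjusted p under 0.05, against 11 with sample quality weights and between 4 and 10 when 1 mouse was left out, 4 being the count without C2-/-Old replicate 3. Over all genes, the adjusted count was 4, against 38 with DESeq2 and between 4 and 7 when 1 mouse was left out, 7 being the count without WTOld replicate 2. The causes were not tested. With the block the pathway count at an unadjusted p was 6, and no member or pathway gene passed the adjusted threshold. With 5 to 43 counts a mouse for *Ifit1*, *Ifit3*, *Isg15* and *Usp18*, counting error limits what these libraries can show.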
